A study of Sus scrofa with 15 samples.

Results

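Sorting nexins and retromer subunits are the machinery that lifts membrane proteins off the endosome before they reach the lysosome. The genes described here were chosen by symbol, namely every gene called *SNX* with a number, the retromer and retriever subunits *VPS26A*, *VPS26B*, *VPS26C*, *VPS29*, *VPS35* and *VPS35L*, the *WASHC* genes of the WASH complex, and *TBC1D5*. Of the 22516 genes in the deposited pig table, 40 carried such a symbol, and 37 of them passed the filter on low counts. *SNX20*, *SNX32* and *SNX33* stayed below it, with at most 24.3, 1.81 and 12.1 counts in a GV library and at most 3.41, 1.75 and 8.97 counts in a library of cultured oocytes. *SNX5* and *WASHC2*, whose products belong to the same complexes, were matched to no gene ID and were not analysed here. The list was drawn up because *SNX7* differed so much between GV and matured oocytes. The values of *SNX7* against GV are therefore given as a description without a test.

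Oocytes came from sow ovaries of an abattoir. GV oocytes, still arrested at the germinal vesicle stage, were taken from fresh follicles and had no culture. The other cumulus oocyte complexes were cultured for *in vitro* maturation (44 h in the labels), stripped of cumulus cells with hyaluronidase, and sorted by eye into MII oocytes with the first polar body and ‘damaged’ oocytes without it. Each group had 5 libraries of 15 pooled oocytes each. By the paper's account there were 5 independent collections, each of which gave oocytes of every group. The main tests did not pair libraries by collection. The sources used here give no genotype, breed or age for the sows. MII and ‘damaged’ oocytes together are called MIX, as in the study. GV and MIX thus differed in stage and in culture at once, and these cannot be told apart.

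A sorting nexin carries a PX domain, which binds phosphoinositide lipids of the endosomal membrane. Those with a BAR domain (SNX-BAR) also bend the membrane into tubules. Retromer, a trimer of VPS35, VPS29 and a VPS26 protein, gathers cargo into such tubules, and retriever is the sister trimer in which VPS35L and VPS26C take the places of VPS35 and VPS26 while VPS29 is shared. The WASH complex grows branched actin on the same endosomal patches. A fully grown oocyte takes up and recycles surface membrane on these routes, and it lives on transcripts stored during growth.

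The libraries held 6.40 to 23.6 M estimated counts. GV replicate 3 was the shallowest and was left out of the tests, so that 4 GV libraries were compared with 10 MIX libraries. CPM are counts relative to the library size after scaling by TMM factors, which were 1.35 to 1.73 in the GV libraries used and 0.794 to 0.922 in MIX. The cDNA was primed on poly(A) tails. More RNA and longer tails therefore cannot be told apart, nor can less RNA per oocyte and fewer oocytes. Of 13 oocyte marker genes matched, 13 passed the filter, and together they made up 20945 to 27107 TPM in GV and 9549 to 14361 TPM in MIX. The 13 cumulus and granulosa markers matched summed to 2.33 to 5.75 TPM in GV and 0.948 to 4.53 TPM in MIX, with *AMHR2*, *PTX3* and *LHCGR* at 0 in the 14 libraries, and 5 blood and immune markers to 5.09 to 9.0 and 0.994 to 2.01 TPM. Of the oocyte markers 5 fell past the threshold given below (16.7% of all genes did) and none rose past it (4.27% of all genes did). Of the cumulus and granulosa markers, 2 passed the filter. *PTGS2* was higher in MIX with TMM factors (log2 fold change 1.29, FDR 0.000294) but not on library sizes (0.38). Its mean level was low, at 0.677 CPM in GV and 1.59 CPM in MIX. *STAR* was at -0.31 (FDR 0.357) with TMM factors and -1.22 on library sizes. Among the markers below the filter but not at 0, most had a lower mean CPM in MIX. *CD3E* (-1.87) and *CD14* (-1.48) were lower (FDR 0.00091 and 1.38e-06). The part of these cells in the results was not tested.

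Between GV and MIX oocytes, several endosomal sorting complexes held both genes that rose and genes that fell. Changes both ways were common, as 30.3% of all genes were higher and 37.2% lower at an FDR under 0.01. Whether genes of the same complex diverged more often than other genes was not tested. *SNX2* and *SNX31* rose past the threshold, an FDR under 0.01 with an absolute log2 fold change over 2. *SNX17*, *SNX19*, *SNX21*, *SNX22*, *SNX30*, *WASHC1* and *WASHC3* fell past it. The 2 rises were 5.56% of the 36 members other than *SNX7*, beside 4.27% of the 13230 genes tested, and the 7 falls were 19.4% of them beside 16.7% of all genes. At an FDR under 0.01 with any size of change, 16 members (44.4%) were higher in MIX beside 30.3% of all genes, 16 (44.4%) were lower beside 37.2%, and 4 passed in neither direction. Without GV replicate 1, *VPS35* (2.02) and *WASHC4* (2.03) joined the rises past the threshold, making 4.

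The direction of the mild changes depended on the scaling. With TMM factors the median gene moved by -0.16 on the log2 scale and the median member by -0.19. On plain library sizes the medians were -1.06 and -1.08. Of the 36 members without *SNX7*, none rose past the threshold (0.348% of all genes did), and 14 fell past it beside 28.6% of all genes. The 7 added were *SNX1* (-2.21), *SNX3* (-2.4), *SNX9* (-2.07), *SNX11* (-2.07), *SNX15* (-2.9), *VPS26C* (-2.56) and *VPS29* (-2.64). On library sizes at an FDR under 0.01, 8 members were higher beside 12.1% of all genes and 20 were lower beside 60.5%. The 8 that were higher under both scalings were *SNX2*, *SNX4*, *SNX6*, *SNX10*, *SNX31*, *TBC1D5*, *VPS35* and *WASHC4*, against 12.1% of all genes. The 16 lower with TMM factors were also lower on library sizes, against 37.2%. This overlap follows from the downward shift on library sizes and adds no support. Of all genes, each of the 4919 lower with TMM factors was lower under both scalings. Likewise, each of the 1596 higher on library sizes was higher under both. The sign differed between the scalings for *SNX14*, *SNX24*, *SNX25*, *SNX27* and *WASHC5*. Unless said otherwise, differences below are log2 fold changes with TMM factors ± SE from limma voom.

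**Figure D1:**
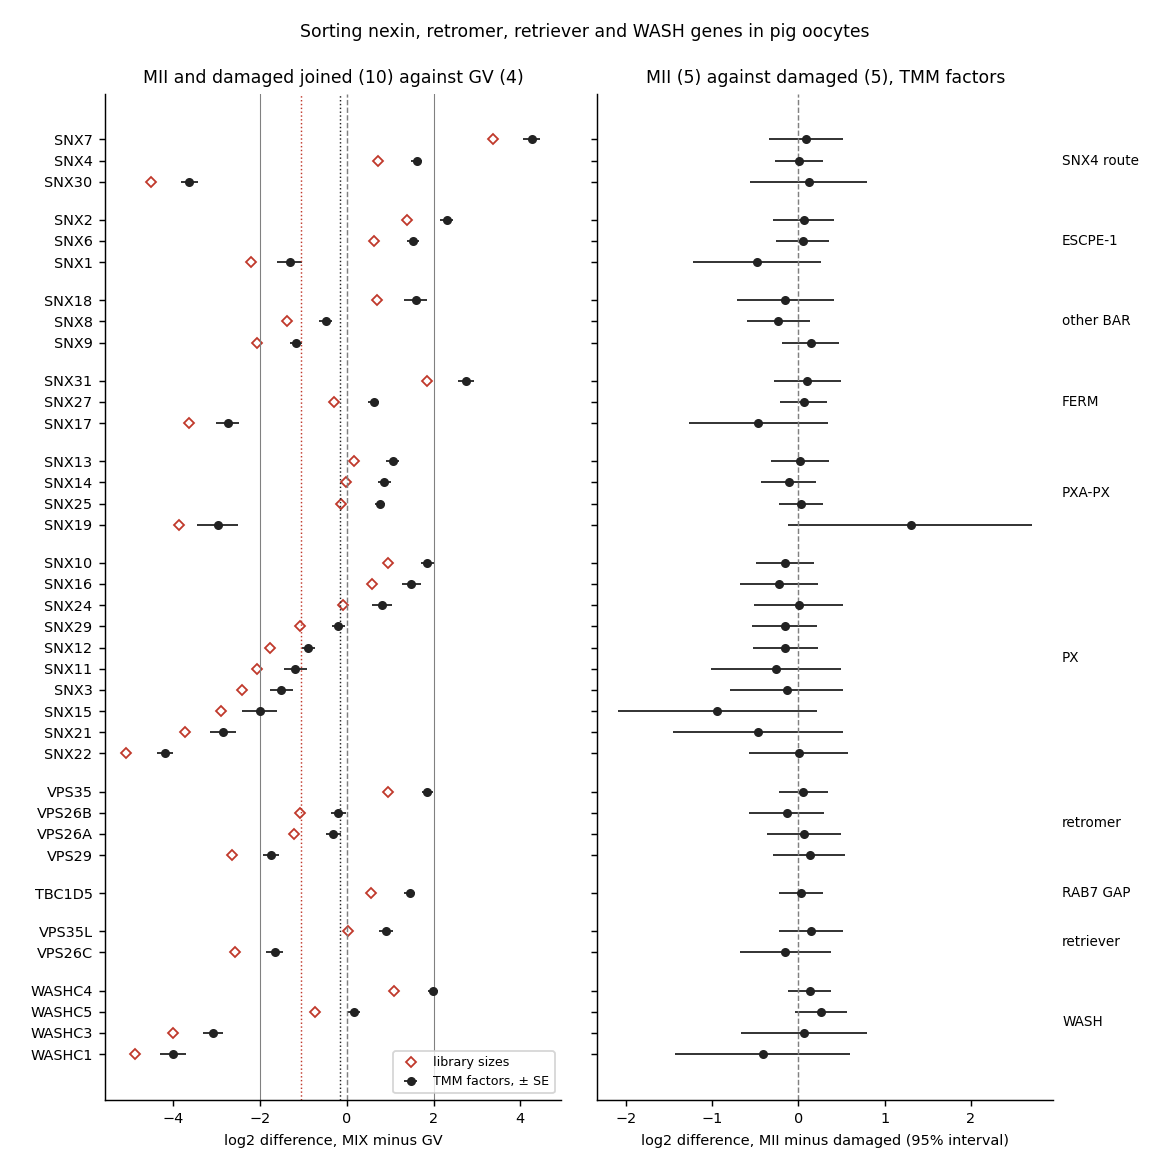
Left, log2 difference of MIX minus GV for the 37 members tested, by role, with TMM factors (filled circles, bars ± SE) and on library sizes (open diamonds). Dotted lines mark the median of all genes under each scaling (-0.16 and -1.06) and grey lines the limits of -2 and 2. *SNX7* lies highest at 4.26 and *SNX22* lowest at -4.18. Right, MII minus ‘damaged’ with 95% intervals, each of which includes 0.

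In the route of SNX4, *SNX4* rose and *SNX30* fell. SNX4 is a SNX-BAR protein that pairs with SNX7 or SNX30 and works in recycling and in autophagy. *SNX7* (ENSSSCG00000006877, chromosome 4, 119040986 to 119258507 in Sscrofa11.1) stood at 274, 128, 249.8 and 121 CPM in GV replicates 1, 2, 4 and 5. In MII replicates 1 to 5 it stood at 3106, 4051, 2411, 3981 and 4719.7 CPM, and in ‘damaged’ replicates 1 to 5 at 3706, 3675, 3016, 3414 and 2990.4 CPM. Every cultured library lay above every GV library by a wide gap, and GV replicate 3, outside the comparison, was lower still at 65.3 CPM. The fitted log2 difference was 4.26 ± 0.197, a fold of 19.1, and 3.36 on library sizes.

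*SNX30* (ENSSSCG00000005471, chromosome 1, 253428461 to 253555463), the closest in role to *SNX7*, went the other way. Its levels were 10.2, 14.4, 12.4 and 13.2 CPM in GV, 1.12, 1.05, 1.52, 0.891 and 0.799 CPM in MII, and 0.827, 0.751, 0.600, 1.58 and 1.26 CPM in ‘damaged’ oocytes. The groups did not overlap, and GV was 12.3-fold above MIX (log2 fold change -3.62 ± 0.201, FDR 1.81e-12). The MIX values of *SNX30* rest on 9.88 to 24.6 counts per library. *SNX4* itself rose from 13.4 ± 1.39 (SD, n = 4) to 41.1 ± 5.06 CPM (SD, n = 10), by 1.61 ± 0.132 (FDR 5.59e-10). Its libraries did not overlap either, since GV reached at most 15.1 CPM and MIX began at 33.7 CPM.

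Ratios of TPM within a library do not depend on the scaling of libraries, and the pairs were chosen after values had been seen. TPM is the estimated read count of a transcript divided by its effective length, scaled to the same total in every library. TPM thus gives relative levels of transcripts, not numbers of molecules. The ratio of *SNX7* to *SNX30* was 9.67 to 29.1 in the 4 GV libraries and 1722 to 6434 in the 10 MIX libraries. *SNX30* had few counts in MIX. The ratio of *SNX4* to *SNX30* was 0.775 to 1.33 in GV and 22.6 to 65.4 in MIX. In contrast, *SNX4* made up 0.0458 to 0.0842 of the level of *SNX7* in GV and 0.0073 to 0.0134 in MIX. By TPM, *SNX7* thus stood above *SNX4* in every library, and more so in MIX.

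Among all 40 genes, *SNX7* went from 5.94 to 9.65% of the summed TPM in GV to 44.6 to 57.9% in MIX. Ranked against all genes of its library by TPM, it stood between places 569 and 1053 in GV and between places 39 and 76 in MIX. The other 39 genes together summed to 2479 to 2850 TPM in GV and 1774 to 1975 TPM in MIX. The sum of the list with *SNX7* was 2650 to 3114 TPM in GV and 3397 to 4686 TPM in MIX, so that the direction of the sum turned on this gene.

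**Figure D2:**
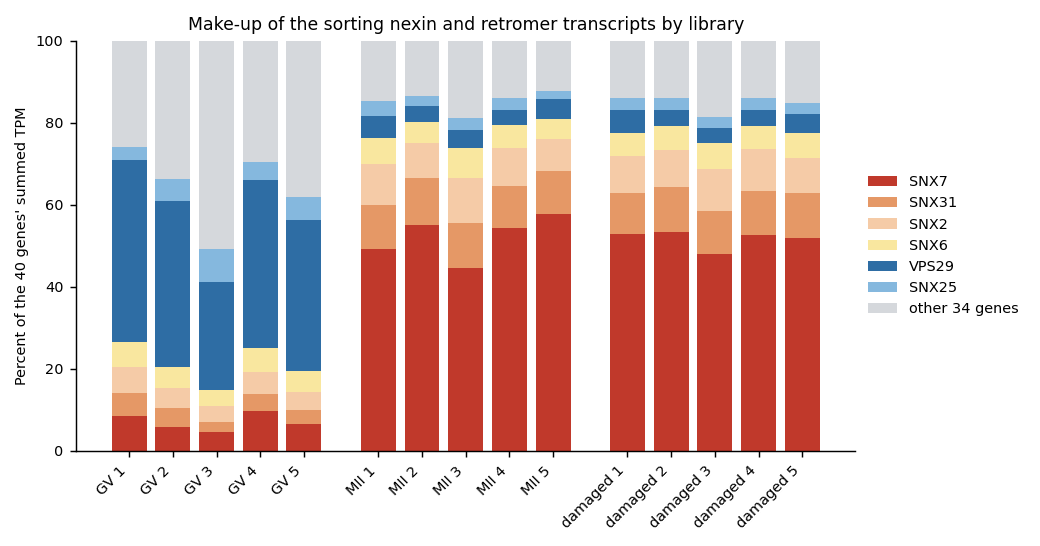
Percent of the summed TPM of the 40 genes in each of the 15 libraries, GV replicate 3 included. *SNX7* takes 5.94 to 9.65% in the 4 GV libraries compared and 44.6 to 57.9% in MII and ‘damaged’, while *VPS29* is the widest band in GV.

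By mean TPM, *VPS29* led the list in GV with 1162 TPM, ahead of *SNX7* (220.0), *SNX6* (160.0), *SNX2* (151) and *SNX31* (129). In MIX the order was *SNX7* (2026), *SNX31* (416), *SNX2* (358), *SNX6* (225) and *VPS29* (172). Within GV, the ranges of *SNX7* (159 to 286 TPM), *SNX6* (136 to 193 TPM), *SNX2* (114 to 193 TPM) and *SNX31* (92.8 to 177 TPM) overlapped, so the order below *VPS29* is not set beyond the spread. *SNX25* (128), *SNX3* (125) and *SNX9* (121) were close behind by mean TPM. In MIX, *SNX31* (371 to 487 TPM) and *SNX2* (330.0 to 387 TPM) overlapped too, while *SNX7* lay apart from both (1515 to 2711 TPM).

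The complex called ESCPE, in which SNX1 or SNX2 pairs with SNX5 or SNX6 to form tubules and pick cargo, was split between its SNX1 and SNX2 subunits. *SNX2* (ENSSSCG00000022790, chromosome 2, 126271213 to 126329831) had 199, 109, 139.8 and 80.7 CPM in GV, 629, 625, 584, 677 and 623 CPM in MII, and 624, 617, 639.6, 655 and 484 CPM in ‘damaged’ oocytes. Every MIX library was above every GV library, with ‘damaged’ replicate 5 the lowest of them, and *SNX2* rose 4.92-fold (2.30 ± 0.158, FDR 4.23e-11). On library sizes its log2 fold change was 1.40, under the limit of 2. *SNX6* rose 2.89-fold (1.53 ± 0.135, FDR 1.91e-09), from 88.6 to 177 CPM in GV to 313 to 357 CPM in MIX.

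*SNX1*, on the other hand, had 11, 8.06, 9.04 and 8.82 CPM in GV, 5.61, 2.10, 7.43, 3.39 and 1.12 CPM in MII, and 5.35, 4.03, 3.6, 3.94 and 5.12 CPM in ‘damaged’ oocytes. The groups did not overlap, although MII replicate 3 came close to the lowest GV library. *SNX1* fell by 1.31 on the log2 scale (SE 0.289, FDR 0.000355). Both library sizes (-2.21) and Kallisto counts summed per gene (-2.33) put it past the limit. The ratio of *SNX2* to *SNX1* in TPM was 6.85 to 13.5 in GV and 58.9 to 418 in MIX.

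**Figure D3:**
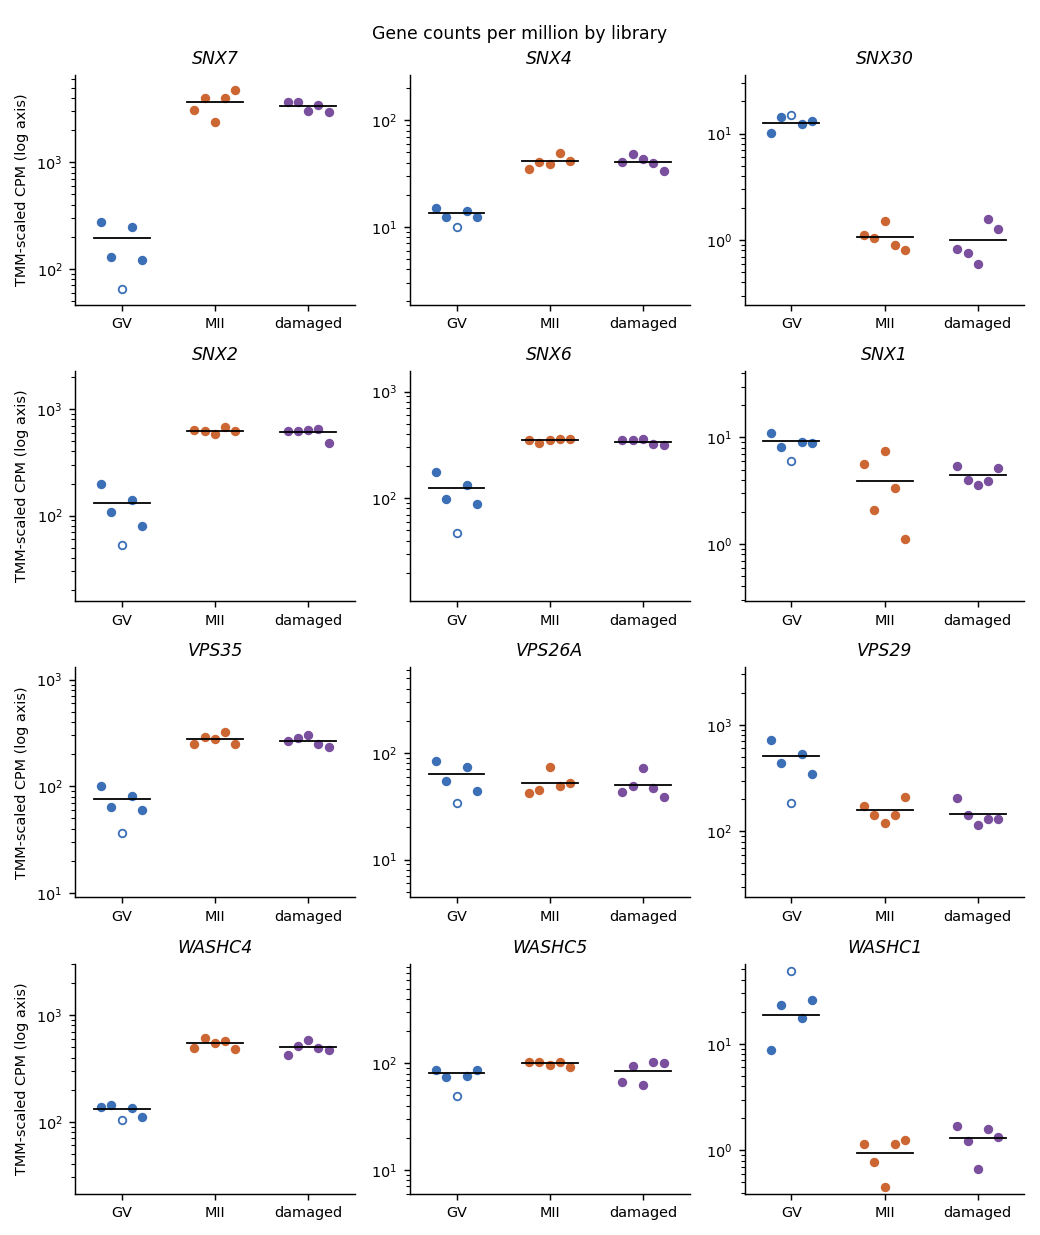
TMM-scaled CPM of 12 members on log axes, each spanning the same fold range. Points are libraries, lines the mean of the libraries compared, and the open circle GV replicate 3, which was not compared. *SNX7*, *SNX2*, *VPS35* and *WASHC4* lie higher in both cultured groups, *SNX30*, *VPS29* and *WASHC1* lower, and *VPS26A* overlaps between the groups.

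In retromer, the scaffold VPS35 and its partner VPS29 moved in opposite directions. The VPS26 subunits, which dock the trimer to sorting nexins, passed the test in neither direction with TMM factors. *VPS35* (ENSSSCG00000026239, chromosome 6, 37944099 to 37977091) had 100.1, 63.8, 80.3 and 60.4 CPM in GV, 249, 288, 275, 324 and 250.3 CPM in MII, and 264, 283, 304, 249 and 235 CPM in ‘damaged’ oocytes. Its groups were far apart, and it rose 3.63-fold (1.86 ± 0.128, FDR 4.22e-11), or by 0.96 on library sizes (FDR 5.42e-08).

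*VPS29* (ENSSSCG00000009823, chromosome 14, 31860661 to 31869614) had 724, 439, 534 and 347 CPM in GV, 174, 142, 119, 142 and 209 CPM in MII, and 204, 142, 115, 129.8 and 130.1 CPM in ‘damaged’ oocytes. The groups did not overlap, and *VPS29* fell by 1.74 on the log2 scale (SE 0.175, FDR 1.32e-08). On library sizes the log2 fold change was -2.64, past the limit.

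*VPS26A* had 44.3 to 83.4 CPM in GV and 38.8 to 73.7 CPM in MIX, with a log2 fold change of -0.31 ± 0.176 (FDR 0.12). For *VPS26B* the values were 20.3 to 27 and 14.5 to 38.2 CPM, with a log2 fold change of -0.19 ± 0.178 (FDR 0.328). Both overlapped between the groups. On library sizes both were lower in MIX (-1.21, FDR 1.12e-06, and -1.08, FDR 2.06e-05), close to the median gene. Relative to the median gene they differed by -0.14 and -0.03.

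Within a library the ratio of *VPS35* to *VPS29* in TPM was 0.0495 to 0.0623 in GV and 0.429 to 0.948 in MIX, with no overlap. *VPS29* still stood above *VPS35* by TPM in each of the 14 libraries. The ratio of *VPS26A* to *VPS26B* overlapped, at 5.10 to 12 in GV and 4.01 to 13.8 in MIX. *TBC1D5*, which encodes the RAB7 GTPase-activating protein that binds retromer, rose 2.73-fold (1.45 ± 0.119, FDR 5.96e-10), from 12.9 to 14.8 CPM in GV to 33.3 to 44.4 CPM in MIX. Its log2 fold change on library sizes was 0.56 (FDR 0.000339).

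Retriever recycles integrins and other receptors that SNX17 selects. Its VPS26C subunit and SNX17 itself fell together with the shared *VPS29*. *VPS26C* (ENSSSCG00000012063) had 28.4, 22.2, 28.3 and 25.3 CPM in GV, 5.37, 7.55, 13.0, 5.68 and 9.56 CPM in MII, and 7.63, 6.42, 14.3, 9.92 and 6.60 CPM in ‘damaged’ oocytes. No MIX library reached the lowest GV library, and *VPS26C* fell by 1.66 on the log2 scale (SE 0.196, FDR 1.46e-07), and its log2 fold change was -2.96 with Kallisto counts summed per gene. *VPS35L* (ENSSSCG00000027324), the large subunit, rose 1.87-fold with TMM factors (0.91 ± 0.167, FDR 5.12e-05), from 8.53 to 12.4 CPM to 13.5 to 27.3 CPM, but not on library sizes (0.02, FDR 0.924). The ratio of *VPS35L* to *VPS26C* in TPM was 0.350 to 0.570 in GV and 1.52 to 4.18 in MIX.

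The sorting nexins with a FERM domain, which bind cargo tails directly, also moved in opposite directions. *SNX17* (ENSSSCG00000025363, chromosome 3, 111775038 to 111781545) had 7.46, 9.25, 13.0 and 13.7 CPM in GV, 2.01, 0.518, 1.84, 1.10 and 1.95 CPM in MII, and 1.01, 1.62, 1.93, 2.15 and 2.87 CPM in ‘damaged’ oocytes. The groups did not overlap, and GV was 6.67-fold above MIX (-2.74 ± 0.266, FDR 8.07e-09). The MIX values rest on 6.82 to 42.7 counts per library.

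*SNX31* (ENSSSCG00000006064, chromosome 4, 36303313 to 36390214), a relative of SNX17 that binds integrins, had 136, 70.2, 82.1 and 48.6 CPM in GV. In MII it had 494, 628, 442, 565 and 626 CPM, and in ‘damaged’ oocytes 518, 555, 485, 518 and 469 CPM. The groups were far apart, and it rose 6.72-fold (2.75 ± 0.176, FDR 1.33e-11), or by 1.85 on library sizes, just under the limit. The ratio of *SNX31* to *SNX17* in TPM was 4.31 to 22.1 in GV and 198 to 1474 in MIX. *SNX27*, whose PDZ domain links cargo to retromer, was 1.53-fold higher with TMM factors (0.62 ± 0.119, FDR 8.86e-05) but lower on library sizes (-0.28, FDR 0.0588). It lay 0.78 above the median gene.

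The WASH complex showed the same kind of split. WASHC1 is the subunit that switches on branched actin growth, and WASHC4 and WASHC5 form the body of the complex. *WASHC1* (ENSSSCG00000000746, chromosome 5, 67395737 to 67412408) had 8.82, 22.9, 17.4 and 26.0 CPM in GV, 1.15, 0.778, 0.455, 1.14 and 1.24 CPM in MII, and 1.68, 1.23, 0.675, 1.58 and 1.33 CPM in ‘damaged’ oocytes. The lowest GV library was far above the highest of MIX, and GV was 16.0-fold above MIX (-4.0 ± 0.303, FDR 1.73e-10), with 5.88 to 24.6 counts in a MIX library.

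*WASHC3* (chromosome 5, 82155253 to 82259552) had 8.20 to 14.8 CPM in GV and 0.646 to 2.23 CPM in MIX, and it fell by 3.08 on the log2 scale (SE 0.226, FDR 1.07e-10). *WASHC4* (ENSSSCG00000000840, chromosome 5, 79417119 to 79474655) had 136, 144, 134 and 110.4 CPM in GV, 492, 616, 548, 578 and 484 CPM in MII, and 427, 512, 589, 495 and 468 CPM in ‘damaged’ oocytes. Each cultured library held far more than any GV library, and *WASHC4* rose 3.97-fold (1.99 ± 0.113, FDR 2.39e-12), just under the limit of 2. On library sizes it rose by 1.10 (FDR 9.47e-09).

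For *WASHC5*, the groups overlapped, at 74.9 to 87.3 CPM in GV and 62.8 to 104 CPM in MIX. Its log2 fold change was 0.17 ± 0.138 (FDR 0.272) with TMM factors and -0.73 (FDR 0.000105) on library sizes. In TPM the ratio of *WASHC4* to *WASHC1* was 1.71 to 6.21 in GV and 102 to 484 in MIX. The ratio of *WASHC4* to *WASHC5* was 0.978 to 1.49 in GV and 3.6 to 7.26 in MIX. Neither pair overlapped between the groups.

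**Figure D4:**
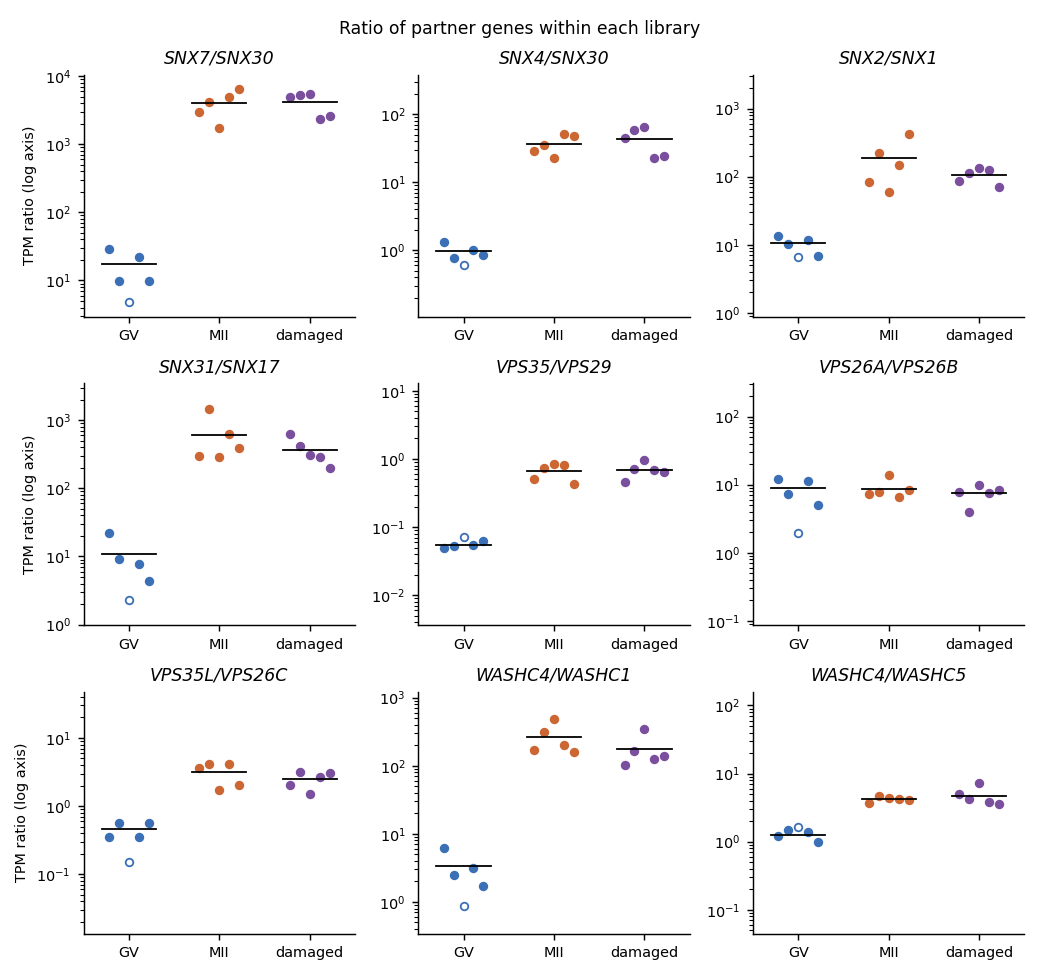
Ratio of TPM between 9 pairs of partner genes within each library, on log axes of equal fold range. Points are libraries, lines the mean of the libraries compared, and the open circle GV replicate 3. *VPS26A* to *VPS26B* overlaps between the groups (5.10 to 12 in GV and 4.01 to 13.8 in MIX), and the other pairs do not.

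Of the sorting nexins that carry a PX domain alone or with domains other than BAR, FERM and PXA, 10 were tested. With TMM factors and an FDR under 0.01, 3 were higher (30.3% of all genes were), 6 lower (37.2% of all genes) and 1 neither. *SNX22* (ENSSSCG00000037275, chromosome 1, 107891698 to 107897561), a small PX protein of little-known role, had the lowest log2 fold change of the members in MIX, close to that of *WASHC1*, which was the lowest in MII (-4.21 beside -4.18). It had 51.7, 47.8, 40.1 and 45.8 CPM in GV, 2.76, 1.73, 1.90, 2.66 and 3.92 CPM in MII, and 3.75, 2.26, 2.98, 2.60 and 1.5 CPM in ‘damaged’ oocytes. GV was 18.2-fold above MIX with no overlap (-4.18 ± 0.176, FDR 4.45e-14). The next gene on chromosome 1 among the members is *SNX1* (107903954 to 107949920), and the ratio of *SNX1* to *SNX22* went from 0.259 to 0.347 in GV to 0.437 to 6.0 in MIX.

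*SNX21*, whose product binds a membrane lipid and has been linked to early endosomes, had 1.89, 4.74, 2.89 and 4.66 CPM in GV and 0.221 to 0.678 CPM in MIX. It fell by 2.84 on the log2 scale (SE 0.299, FDR 2.64e-08), with 3.53 to 11.2 counts in a MIX library. *SNX3*, which brings retromer to the Wnt carrier WLS, fell by 1.5 (SE 0.254, FDR 1.89e-05), but its groups overlapped. The overlap came from ‘damaged’ replicate 3, which had 50.7 CPM where the other MIX libraries had 10 to 38.3 CPM and GV had 50 to 74.6 CPM.

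*SNX11* and *SNX15* stood at 2.55 to 3.91 and 1.47 to 2.65 CPM in GV. *SNX11* fell by 1.18 (SE 0.263, FDR 0.000381), again with ‘damaged’ replicate 3 (3.78 CPM) inside the GV range and the other MIX libraries at 0.861 to 1.47 CPM. *SNX15* fell by 2.0 (SE 0.399, FDR 0.000129), so close to the limit that the call turned on single libraries. Its counts in MIX were 0.993 to 17.6 per library.

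Of the 4 sorting nexins with a PXA domain, 3 were higher with TMM factors, beside 30.3% of all genes. These were *SNX13*, *SNX14* and *SNX25*, which also carry an RGS domain. None of the 3 was higher on library sizes at an FDR under 0.01, beside 12.1% of all genes. *SNX19*, which lacks the RGS domain and is linked to contacts of endosomes with the endoplasmic reticulum, had 1.24 to 2.17 CPM in GV and 0 to 0.515 CPM in MIX. It fell by 2.97 on the log2 scale (SE 0.464, FDR 6.77e-06), with 0 to 6.66 counts per MIX library. Of 3 further SNX-BAR genes tested, 2 were lower under both scalings (37.2% of all genes were) and 1 was higher with TMM factors (30.3% of all genes). *SNX9*, whose product works with dynamin in endocytosis, fell by 1.17 (SE 0.134, FDR 9.51e-08), from 95.9, 119, 115 and 143 CPM in GV to 39.9 to 66.9 CPM in MIX.

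In all, the MIX and GV libraries did not overlap in 27 of the 36 members other than *SNX7* (75.0%), beside 53.6% of all genes tested. The members without a longer account (*SNX8*, *SNX10*, *SNX12*, *SNX13*, *SNX14*, *SNX16*, *SNX18*, *SNX24*, *SNX25* and *SNX29*) had log2 fold changes between -0.88 (*SNX12*) and 1.86 (*SNX10*). The mean transcript length had a median of 2938 bases in the 16 members that were higher and 2374 bases in the 16 that were lower. Over all genes the medians were 3010 bases for those higher and 2692 bases for those lower.

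Taken separately, MII and ‘damaged’ oocytes gave nearly the same members against GV, and both comparisons used the same 4 GV libraries. In MII, 3 members other than *SNX7* were higher past the threshold (*SNX2*, *SNX31* and *WASHC4*), beside 4.5% of all genes, and 8 were lower (those of MIX and *SNX15*), beside 17.1%. In ‘damaged’ oocytes 2 were higher, beside 4.08%, and 7 were lower, beside 16.4%. On library sizes, of the 36 members without *SNX7*, none was higher past the threshold in MII (0.363% of all genes) or in ‘damaged’ oocytes (0.333%). There 14 (beside 29.4%) and 12 (beside 27.8%) were lower. *SNX7* differed from GV by 4.30 in MII and 4.21 in ‘damaged’ oocytes. For *VPS35* these values were 1.89 and 1.83, for *WASHC1* -4.21 and -3.80, and for *SNX19* -2.32 and -3.62.

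The comparison of MII with ‘damaged’ oocytes asks whether oocytes that did and did not extrude the polar body differ in these genes. It was not used to choose the members, so *SNX7* was tested here with the rest. None of the 37 members passed an FDR of 0.01 by limma voom, edgeR or DESeq2, as none of the 13230 genes did by limma voom (0.0%), and at an unadjusted p under 0.05 the count was 0 of 37 beside 1.47% of all genes. *SNX7* stood at 3654 CPM on average in MII and 3360.3 CPM in ‘damaged’ oocytes, a log2 difference of 0.09 with a 95% interval of -0.34 to 0.52 (FDR 1.0). The interval lay on both sides of 0 and within 1 log2 unit of it.

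The estimates ran from -0.94 for *SNX15* (interval -2.09 to 0.21) to 1.30 for *SNX19* (interval -0.12 to 2.71), both at very low counts. In 30 of 37 members the interval lay within 1 log2 unit of 0. The 7 others were *SNX1*, *SNX11*, *SNX15*, *SNX17*, *SNX19*, *SNX21* and *WASHC1*, whose levels averaged at most 4.41 CPM in both groups. For *VPS35* the interval was -0.23 to 0.34 and for *WASHC4* -0.12 to 0.38. Since 7 column names of the deposited gene table contradict the transcript files, this comparison rests on the labels of the transcript files, and which labels are right was not tested.

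Besides the level of a gene, the transcript files show which of its isoforms make it up. Of 20 members other than *SNX7* with at least 2 isoforms kept, 14 (*SNX1*, *SNX3*, *SNX4*, *SNX6*, *SNX9*, *SNX14*, *SNX16*, *SNX17*, *SNX24*, *SNX27*, *VPS26C*, *VPS35*, *WASHC3* and *WASHC5*) had an isoform whose share of the gene differed between MIX and GV by over 0.1 at an FDR under 0.01. Of all 4675 genes with isoforms kept, 49.7% had one. The 2 isoforms of *SNX7* kept their shares. The one of 1972 bases made up 71.7, 78.9, 76.5 and 76.9% in GV, 76.6 to 78.1% in MII and 76.0 to 78.4% in ‘damaged’ oocytes, so that both isoforms were higher in MIX to about the same degree. Their mean levels were 166 and 1566 TPM for this isoform and 53.8 and 459.9 TPM for the one of 2801 bases.

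In *VPS35*, an isoform of 2371 bases (ENSSSCT00000105395.1) was at 9.55, 0, 0 and 0% in GV, 36.7, 42.1, 43.5, 41.7 and 39.6% in MII, and 36.2, 40.9, 35.9, 43.5 and 49.0% in ‘damaged’ oocytes (FDR 1.37e-09). It was listed at 0 in 3 GV libraries, and no cultured library was near 0. The isoforms of 2958 and 3708 bases held 18.7 TPM (3708 bases) and 39.4 TPM (2958 bases) on average in GV and 19.7 and 44.1 TPM in MIX, beside which the short isoform differed most (1.64 TPM in GV and 45.9 TPM in MIX).

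In *WASHC5*, whose gene level passed in neither direction with TMM factors, an isoform of 3752 bases (ENSSSCT00000099997.1) was at 0 in each of the GV libraries. It made up 40, 46.8, 62.1, 53.7 and 54.3% in MII and 35.2, 48.5, 44.1, 58.1 and 64.5% in ‘damaged’ oocytes (FDR 4.13e-55). The isoform of 4910 bases, which held 63.2 to 99.0% in GV, held 0.0300 to 64.8% in MIX, and its change did not pass the test (FDR 0.0348).

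In *VPS26C*, an isoform of 994 bases went from 0 to 31.1% in GV to 57.5 to 92% in MIX (FDR 3.42e-05) while the gene fell. In TPM this isoform averaged 2.66 ± 3.08 (SD, n = 4) in GV and 2.54 ± 1.23 (SD, n = 10) in MIX, and an isoform of 5831 bases fell from 9.06 to 0.140 TPM. In *SNX1*, an isoform of 440 bases went from 0 to 7.37% in GV to 14.1 to 82.3% in MIX (FDR 1.26e-15). Its mean level was 0.459 TPM in GV and 2.26 TPM in MIX, where the whole gene had 17.9 to 96.0 counts per library. The *SNX1* isoform of 1843 bases averaged 86.8% in GV and 29.7% in MIX, but its change did not pass the test (FDR 0.806). *SNX4* gained an isoform of 1562 bases, at 0 to 18.6% in GV and 25.1 to 38.2% in MIX (FDR 1.02e-06), beside its main isoform of 2559 bases.

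*SNX9* lost its main isoform of 3447 bases, which made up 65.2 to 76.5% in GV and 9.57 to 18.4% in MIX (FDR 2.14e-72). In *SNX14*, which takes part in lipid handling at the endoplasmic reticulum, the isoform of 2986 bases went from 23.9 to 69.1% in GV to 80.4 to 100% in MIX (FDR 9.20e-09). Where a member had both a gaining and a losing isoform called, the gaining one was the shorter in 9 of 11, beside 62.4% of 1878 genes in all. *SNX3* and *SNX14* were the exceptions.

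**Figure D5:**
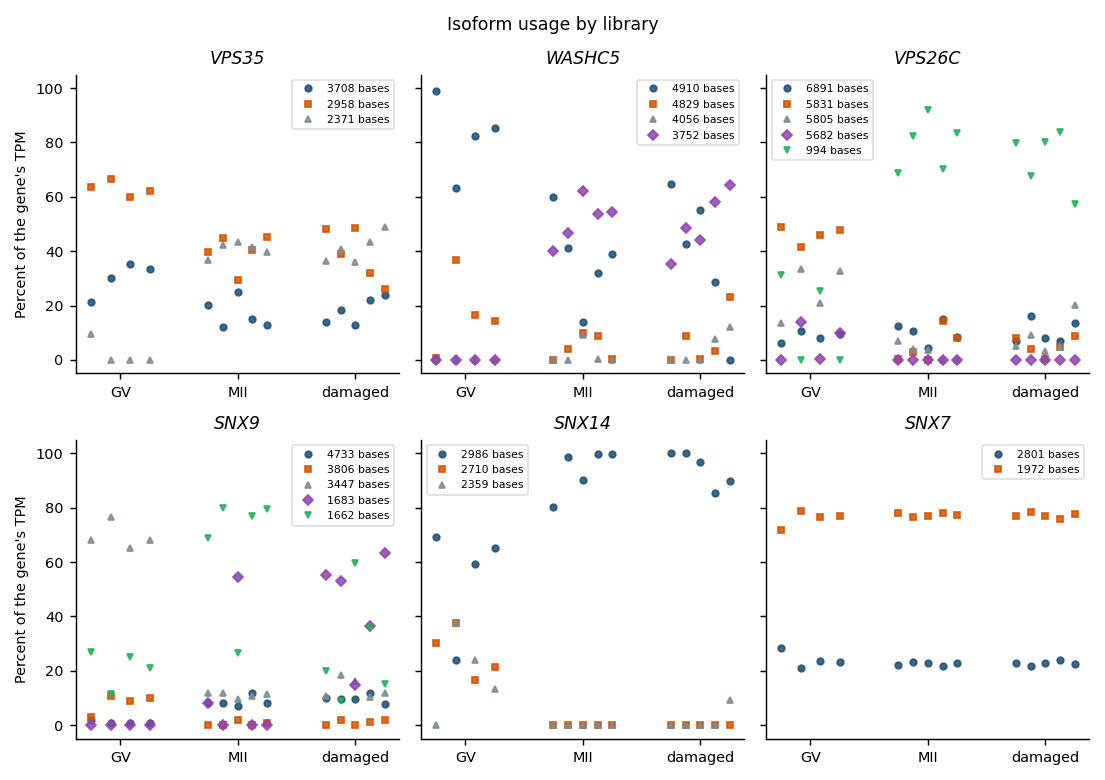
Percent of the gene's TPM held by each isoform kept, by library, for 6 members. Symbols stand for isoforms, named by length in bases, and each point is 1 library (GV replicate 3 left out). *SNX7* holds the same shares in the 3 groups, while the 2371-base isoform of *VPS35* and the 3752-base isoform of *WASHC5* are at or near 0 in GV and at 35.9 to 49.0% and 35.2 to 64.5% in the cultured oocytes.

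Between MII and ‘damaged’ oocytes, none of the 19 members tested had a called isoform by the DEXSeq model, beside 0.0229% of 4373 genes, which is 1 gene. The smallest unadjusted p was that of *SNX9*. Its isoform of 1662 bases made up 68.8, 79.9, 26.7, 77.0 and 79.5% in MII and 19.8, 8.94, 59.7, 35.7 and 15.3% in ‘damaged’ oocytes (unadjusted p 0.0026, FDR 0.40). The 1683-base isoform had the reverse pattern, with MII replicate 3 and ‘damaged’ replicate 3 outside the range of the rest of their group. These isoforms are of nearly equal length, and how their reads were divided between them was not tested.

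The genes that work around retromer were counted from lists by function, with TMM factors and an FDR under 0.01. Beside them stand 30.3% higher and 37.2% lower of all genes, and 4.27% and 16.7% past the threshold. On library sizes these shares of all genes were 12.1% higher and 60.5% lower, and 0.348% and 28.6% past the threshold. Of the 12 Commander genes tested, whose products form the larger assembly around retriever, 6 were higher and 4 lower, with none past the threshold upward and 4 past it downward. The largest falls were those of *COMMD7* (-3.82 ± 0.221, FDR 2.96e-12) and *COMMD9* (-3.58 ± 0.217, FDR 6.30e-12). On library sizes 2 were higher and 6 lower. The median of the list was 0.23 beside -0.16 for all genes with TMM factors, and -0.67 beside -1.06 on library sizes.

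Of 17 genes that make or read the endosomal lipid or encode endosomal RAB proteins and their effectors, 5 were higher and 6 lower, with 2 past the threshold downward. These were *MON1A*, part of the exchange factor that loads RAB7 (-3.65 ± 0.181, FDR 3.37e-13), and *RAB5C*, a GTPase of the early endosome (-2.49 ± 0.206, FDR 7.17e-10). On library sizes 1 was higher and 13 lower, with 4 past the threshold downward. The median was -0.14 with TMM factors and -1.02 on library sizes. Of 14 cargo proteins of retromer, 5 were higher and 6 lower, and *STX7*, a SNARE of the late endosome, rose past the threshold (2.73 ± 0.199, FDR 9.30e-11), but not on library sizes (1.83). On library sizes 2 were higher and 9 lower. The median of the cargo list was -0.35, and -1.23 on library sizes.

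Of 19 accessory and branched actin genes tested, 6 were higher and 8 lower, with a median of -0.39. On library sizes 2 were higher and 13 lower, with a median of -1.28. *EHD1*, which pinches off endosomal tubules, and *ARPC3*, a subunit of the actin nucleator that WASH activates, had the largest falls (-3.98 ± 0.423, FDR 3.20e-08, and -3.12 ± 0.173, FDR 1.63e-12). No gene of the 4 lists passed an FDR of 0.01 between MII and ‘damaged’ oocytes.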

How the data were processed

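RNAseq files of 15 pig libraries (GV, MII and ‘damaged’ oocytes, 5 each, 15 oocytes per library) were used. The authors trimmed reads with AfterQC and made the estimated counts and the TPM values per transcript with Kallisto (version 0.43 in the submitters' processing notes) on Ensembl cDNA of Sscrofa11.1. For the deposited gene table, the authors turned these into estimated gene counts with tximport (lengthScaledTPM), without normalization across libraries. The names of 7 of the 15 columns of that table contradict their totals, so these columns were not used here. Transcripts were placed to genes through the other 8 columns, and gene counts of all libraries were computed by the same formula. In those 8 columns, values of 10 counts or more matched the deposited ones within 5.77e-13%.

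Groups and replicate numbers were taken from the labels of the transcript files. Members, lists and tests were chosen with earlier results of these data known. After filterByExpr and TMM scaling in edgeR 4.0.16, differences were tested by limma 3.58.1 with voom weights (R 4.3.3). Beyond lengthScaledTPM, the paper's text names no normalization factors for voom. TMM was taken because group means in the study's supplementary tables correspond to it, and library sizes were the main alternative. GV replicate 3 was left out. MIX against GV was fitted in 2 groups and the other comparisons in 3, and the FDR (Benjamini-Hochberg) was taken over 13230 genes. A gene passed the threshold with a log2 fold change beyond 2 in either direction and an FDR under 0.01. Isoforms (gene TPM over 1, isoform fraction over 0.05) were tested with the DEXSeq model in DESeq2 1.42.0 at an FDR under 0.01 and a difference of fraction over 0.1. The gene and isoform tests were first run on simulated data with known changes. These data had a fixed dispersion and no general shift between groups, so they do not bear on the choice of scaling. Named genes were *SNX7*, members past the threshold under either scaling, and the subunits of retromer, retriever and WASH with their sorting nexins, together with the 2 largest rises and falls past the threshold in each list. *SNX14* was named for its isoforms after values were seen. Relatives by protein identity were not named, since no protein sequences were at hand. Positions are those of RefSeq for the symbol in Sscrofa11.1. Alternatives were edgeR, DESeq2, other filters, summed counts, all 5 GV libraries, a replicate block, diffSplice for isoforms, and leaving out each library. Tables and figures used Python 3.11.15 with pandas 2.3.3, numpy 2.4.6 and matplotlib 3.10.9.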

Additional observations from a re-analysis of the deposited data

Results flagged for a closer look

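In 81 sets of 4 or 5 libraries (27 genes in 3 groups), the highest or lowest library stood apart from the rest in 5, and chance gives about 1 in 20. In ‘damaged’ replicate 3, *SNX3* had 50.7 CPM where the other 4 ‘damaged’ libraries had 15.7 to 18.7 CPM. In the same library *SNX11* had 3.78 CPM against 0.861 to 1.20 CPM, from 62.3 counts, and *WASHC3* had 1.76 CPM against 1.09 to 1.23 CPM, from 28.9 counts. *SNX2* had 484 CPM in ‘damaged’ replicate 5 against 617 to 655 CPM in the others. *SNX6* had 329 CPM in MII replicate 2 against 352 to 357 CPM.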

How the results depend on the processing

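On library sizes, members past the threshold in MIX against GV numbered 0 higher and 14 lower (2 and 7 with TMM factors), and 8 instead of 16 were higher at an FDR under 0.01. MII then had 0 and 14, and ‘damaged’ 0 and 12. With a filter of 10 CPM, MIX, MII and ‘damaged’ each had 1 higher. With all 5 GV libraries MIX had 4 higher. With all 5 on library sizes, an alternative chosen after seeing the data, MIX had 1 higher and 14 lower, with 8 higher at an FDR under 0.01, MII had 1 and 15, and ‘damaged’ 1 and 12. The sign turned for *SNX27* on library sizes (-0.28, and -0.37 with all 5 GV). It also turned for *WASHC5* on library sizes (-0.73, and -0.63 with all 5 GV) and with the 10 CPM filter (-0.15). With summed counts *WASHC5* did not move (-0.00). The cause of the turned signs was not tested. Leaving out each library gave 2 to 4 higher and 7 to 8 lower in MIX, with 15 to 16 each way at an FDR under 0.01, 2 to 4 and 8 to 9 in MII, 2 to 3 and 7 to 8 in ‘damaged’, 0 in MII against ‘damaged’, and 11 to 14 isoform genes (by diffSplice, which called 12 with all libraries). Without GV replicate 1, *VPS35* (2.02) and *WASHC4* (2.03) joined the rises of MIX, making 4. *SNX15* passed the limit when any 1 of 8 libraries was left out. Same-numbered libraries deviated together in part, not throughout (13 pairs, correlations -0.113 to 0.363). Their median correlation was 0.0721, beside -0.01645 in the 52 pairs with unlike numbers. Of 14 libraries, 8 correlated best with their own number. The labels do not say whether equal numbers mark the same collection. The numbers are those of the transcript files, which 7 column names of the deposited gene table contradict. With the replicate block, MIX had 2 higher and 8 lower, with *SNX15* at -2.12, 17 instead of 16 were lower at an FDR under 0.01, and diffSplice called 14 isoform genes instead of 12. Of 27 named genes, 26 kept their call with the block. With summed counts, MIX had 3 higher and 10 lower. Genes under about 3 CPM in MIX rest on few counts, and the reads carry no strand, so overlapping antisense transcripts cannot be told apart.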

Other observations

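The 4 GV libraries compared split by pairs for many members, a pattern noticed after values were seen. Replicates 1 and 4 were both above replicates 2 and 5 for 18 of the 37 members tested in CPM (48.6%, beside 29.9% of all genes tested). In TPM this held for 10 of 37 (27%, beside 12.8% of all genes), namely *SNX2*, *SNX6*, *SNX7*, *SNX16*, *SNX24*, *SNX31*, *VPS26A*, *VPS29*, *VPS35* and *WASHC3*. The reverse order held for 8 members in CPM (21.6%, beside 24.8%) and 15 in TPM (40.5%, beside 43.8%). All 8 of CPM, with *WASHC1*, *SNX21* and *SNX30* among them, were also among the 15 of TPM. The TMM factors were 1.35 and 1.54 in replicates 1 and 4 and 1.63 and 1.73 in replicates 2 and 5, and their part in the order was not tested. GV replicate 3 lay beyond replicates 2 and 5 for *SNX7* (65.3 CPM) and *WASHC1* (48.6 CPM).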
